A study of Mus musculus with 9 samples.

Results

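The glutamate transporter gene Slc17a6 and 9 genes that mark neurons of the thalamus were followed in the dissected dopaminergic midbrain of adult mice with 0, 1 or 2 floxed Dot1l alleles. The list was chosen by name, as Slc17a6, Tcf7l2, Lef1, Prkcd, Zic1, Zic4, Shox2, Tnnt1, Gbx2 and Ramp3, and each symbol matched 1 Ensembl identifier. They are 10 of the 47729 identifiers in the count files. All 10 passed the filter on low counts, which left 17671 genes to test. Every mouse carried Pitx3-Cre/+ and the Rosa-lox-stop-lox-Yfp reporter on a C57/Bl6 background and was 180 days old. The 3 genotypes were Dot1l(+/+), the heterozygous Dot1l(fl/+) and the homozygous Dot1l(fl/fl), in which Cre removes the floxed exon from both alleles. There were 3 RNA-seq libraries for each genotype, 9 in all, and each library pooled the tissue of 3 dissections, so that p-values measure the spread between pools. The methods describe the pools as matched, with 1 set of the 3 genotypes taken from each nest. The series description speaks of sorted embryonic neurons, whereas the label of every library gives P180 and tissue dissection, and the libraries were taken as labelled. In the brain, Pitx3-Cre acts in midbrain dopamine neurons, and the dissected tissue also held cells without Cre.

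Slc17a6 encodes VGLUT2, the transporter that loads glutamate into synaptic vesicles in most excitatory neurons below the cortex, including those of the thalamus and of the midbrain. Tcf7l2 and Lef1 are DNA-binding partners of beta-catenin at the end of the Wnt pathway, and thalamic neurons keep both after development. The thalamus lies directly in front of and above the midbrain, so the front slices of a midbrain dissection border on it. Dot1l methylates lysine 79 of histone H3 along transcribed genes.

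The members lie on 7 chromosomes. On GRCm38, Slc17a6 spans chr7:51622006-51671119, Tcf7l2 chr19:55741820-55933654, Lef1 chr3:131110471-131224356, Gbx2 chr1:89927956-89931179 and Shox2 chr3:66971727-66981771. Prkcd spans chr14:30595354-30626210, Tnnt1 chr7:4504570-4516382 and Ramp3 chr11:6658521-6677475. Zic1, at chr9:91358058-91365810, and Zic4, at chr9:91362413-91389348, are neighbours on opposite strands, with RefSeq starts 3204 bases apart. Their exons share 60 bases. Gbx2 shares 946 exon bases, 43.5% of its exon length, with the antisense gene D130058E05Rik, which held 396 counts over the 9 libraries against 1469 for Gbx2. Antisense overlaps were also found for Lef1 with Gm43352 (1208 bases, 134 counts) and for Shox2 with Rsrc1 (153 bases, 19935 counts). The libraries were directional, but whether strand was used in counting is not given in the sources used here, so the values of Gbx2, Shox2, Lef1, Ramp3 and the Zic pair may include reads of the overlapping gene.

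The sequences before the starts of Prkcd, Tnnt1 and Shox2 are shown because Prkcd and Tnnt1 are a pair of members that varied together both with and without the heterozygous libraries, and because Tcf7l2 and Lef1, which are members themselves, bind the word CTTTGA. Each run covers the bases from 250 to 51 before a RefSeq start on GRCm38.p6 and is written along the strand of the gene. Capitals mark CTTTGA or its reverse complement TCAAAG, the E-box CACGTG and the TATA word TATAAA or TTTATA, and none of these overlapped one another.
Prkcd, chr14:30626259-30626458, minus strand: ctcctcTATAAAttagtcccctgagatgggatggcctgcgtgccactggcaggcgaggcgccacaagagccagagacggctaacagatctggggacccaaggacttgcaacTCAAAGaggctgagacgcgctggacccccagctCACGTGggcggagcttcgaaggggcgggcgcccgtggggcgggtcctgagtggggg
Tnnt1, chr7:4516026-4516225, minus strand: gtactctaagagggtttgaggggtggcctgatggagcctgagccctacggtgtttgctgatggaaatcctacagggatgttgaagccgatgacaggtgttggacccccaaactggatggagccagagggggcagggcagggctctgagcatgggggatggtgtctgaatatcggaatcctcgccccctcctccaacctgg
Shox2, chr3:66981822-66982021, minus strand: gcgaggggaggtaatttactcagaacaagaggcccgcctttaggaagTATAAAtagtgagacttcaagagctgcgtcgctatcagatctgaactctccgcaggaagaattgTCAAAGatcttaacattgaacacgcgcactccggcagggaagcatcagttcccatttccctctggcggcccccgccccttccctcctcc
The Prkcd window held TCAAAG from base 139 before the start and CACGTG from base 106, the Shox2 window held TCAAAG from base 139, and the Tnnt1 window held none of the words. Over the 16 windows of this length that RefSeq gives for the 10 members, CTTTGA was found in 3, before starts of Lef1, Prkcd and Shox2, against 11.8% of 32851 windows of all genes. CACGTG was found in 4, before starts of Gbx2, Lef1, Prkcd and Zic1, against 4.34% of all windows, and TATAAA in 4 against 9.14%. CACGTG and TATAAA were added after the windows had been seen. Several windows belong to 1 gene, and a match describes the letters and not a binding site.

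The libraries held 16422135 to 28403218 counts on genes, with a median of 25414332, and the scaling factors (TMM) lay between 0.988 and 1.01. Levels are given as CPM, the counts scaled to a common library size. Total Dot1l reads do not measure the loss of 1 exon, and Dot1l measured 60.6 to 85.2 CPM over the 9 libraries, with a log2 fold change of -0.07 (SE 0.09) in Dot1l(fl/fl) against Dot1l(+/+). Single heterozygous libraries stood apart from the others, and not the same ones for each set of markers. Summed markers of the choroid plexus reached 573 CPM in Dot1l(fl/+) replicate 3 against 31.1 to 169 CPM in the other 8 libraries. Summed hypothalamic markers reached 114 CPM in Dot1l(fl/+) replicate 1 and 63.5 CPM in replicate 3 against 6.93 to 14.2 CPM elsewhere. These sums cover the 5 of 10 listed genes that passed the filter on low counts, and most of both high values was Pmch. Pmch alone measured 99.4 CPM in Dot1l(fl/+) replicate 1 and 49.6 CPM in replicate 3, against 0.472 to 7.24 CPM elsewhere. Dot1l(fl/+) replicates 2 and 3 were the lowest and the highest of the 9 libraries for the summed members, at 671 and 916 CPM against 730 to 849 CPM elsewhere. The members' medians and largest differences that involve Dot1l(fl/+) are given with and without these 2 libraries.

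Slc17a6 was the most abundant member. Per kilobase of exon, its level averaged 61.5 CPM over the 9 libraries, with a range from 57.3 to 70.6, and no other member reached that range. Prkcd followed with 24.1 CPM per kilobase (16.4 to 34.6), then Tcf7l2 with 16.3, Zic1 with 14.0, Ramp3 with 13.9, Shox2 with 10.95 and Tnnt1 with 9.20. The ranges of neighbours in this order overlapped from Prkcd down to Tnnt1, so their order is not fixed by these libraries. Gbx2 had 3.09 CPM per kilobase (2.56 to 4.38) and Lef1 2.08 (1.83 to 2.74), which overlapped each other and lay below the range of Tnnt1. Zic4 was lowest at 0.812 CPM per kilobase (0.670 to 0.920), under the lowest value of Lef1. The lowest count of any member in any library was 113, for Gbx2 in Dot1l(fl/fl) replicate 3, so that all 10 were well measured in every pool.

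The excitatory marker Slc17a6 had fitted differences near 0 between genotypes, with the narrowest intervals of the members. It measured 316, 381 and 312 CPM in the 3 Dot1l(+/+) libraries, 343, 309 and 340 CPM in Dot1l(fl/+), and 328, 327 and 331 CPM in Dot1l(fl/fl). The 3 genotypes overlapped, and the Dot1l(+/+) libraries had the widest spread. The fitted log2 fold change was -0.03 in Dot1l(fl/+) against Dot1l(+/+), with a 95% confidence interval from -0.18 to 0.13. It was -0.03 in Dot1l(fl/fl) against Dot1l(+/+) (-0.19 to 0.12) and -0.01 in Dot1l(fl/fl) against Dot1l(fl/+) (-0.16 to 0.15). In bulk tissue, fewer cells of a kind and less RNA in each cell cannot be told apart, for this gene and for those that follow.

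For the transcription factors of the Wnt pathway, the heterozygotes held the lowest library of Tcf7l2 and the highest of Lef1. Tcf7l2 measured 144, 159 and 132 CPM in Dot1l(+/+), 150, 106 and 151 CPM in Dot1l(fl/+), and 145, 156 and 142 CPM in Dot1l(fl/fl). Its lowest value of all was in Dot1l(fl/+) replicate 2, while the other 8 libraries ranged from 132 to 159 CPM. Lef1 measured 16.1, 19.2 and 16.4 CPM in Dot1l(+/+), 20.6, 16.4 and 24.1 CPM in Dot1l(fl/+), and 16.6, 17.5 and 17.4 CPM in Dot1l(fl/fl). Dot1l(fl/+) replicates 1 and 3 were the highest for Lef1, and the groups overlapped through replicate 2. The fitted log2 fold change of Lef1 in Dot1l(fl/+) against Dot1l(+/+) was 0.24 (SE 0.12, edgeR adjusted p = 0.630), and that of Tcf7l2 was -0.09 (SE 0.11, adjusted p = 0.852).

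The homeodomain factors Gbx2, which directs the development of the thalamus, and Shox2, which thalamic projection neurons also express, were highest in the same heterozygous library. Gbx2 measured 5.86, 6.05 and 5.90 CPM in Dot1l(+/+), 7.56, 5.58 and 9.54 CPM in Dot1l(fl/+), and 6.60, 6.64 and 6.85 CPM in Dot1l(fl/fl). The Dot1l(+/+) and Dot1l(fl/fl) pools were each within a narrow band and did not overlap, while Dot1l(fl/+) held both the lowest and the highest value. Shox2 measured 34.3, 35.8 and 31.0 CPM in Dot1l(+/+), 36.8, 34.6 and 43.9 CPM in Dot1l(fl/+), and 35.7, 38.3 and 36.0 CPM in Dot1l(fl/fl). Dot1l(fl/+) replicate 3 stood above the other 8 libraries, and the groups overlapped.

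Zic1 and Zic4, zinc finger factors known from the cerebellum and the dorsal midline of the brain, shared their highest and lowest libraries in 2 of the genotypes. Zic1 measured 74.3, 67.7 and 84.8 CPM in Dot1l(+/+), 76.9, 72.8 and 91.3 CPM in Dot1l(fl/+), and 85.9, 85.9 and 77.1 CPM in Dot1l(fl/fl). Zic4 measured 8.51, 7.64 and 9.51 CPM in Dot1l(+/+), 7.01, 6.93 and 9.39 CPM in Dot1l(fl/+), and 8.44, 9.33 and 8.80 CPM in Dot1l(fl/fl). For both genes replicate 3 was the highest of the Dot1l(+/+) and of the Dot1l(fl/+) libraries, and replicate 2 the lowest.

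Prkcd, Tnnt1 and Ramp3, genes that label relay neurons of the thalamus, varied most. Prkcd, which encodes protein kinase C delta, measured 137, 114 and 108 CPM in Dot1l(+/+), 163, 90.8 and 192 CPM in Dot1l(fl/+), and 150, 132 and 115 CPM in Dot1l(fl/fl). Its 2 most distant libraries, 2.11-fold apart, were both heterozygous. Tnnt1, the slow skeletal muscle troponin T, measured 22.2, 18.1 and 12.4 CPM in Dot1l(+/+), 23.5, 14.1 and 25.7 CPM in Dot1l(fl/+), and 26.7, 20.8 and 18.9 CPM in Dot1l(fl/fl). It varied within all 3 genotypes, and its extremes were Dot1l(+/+) replicate 3 and Dot1l(fl/fl) replicate 1. Ramp3, a receptor activity-modifying protein that pairs with calcitonin family receptors, measured 17.4, 16.2 and 17.4 CPM in Dot1l(+/+), 20.5, 14.4 and 29.7 CPM in Dot1l(fl/+), and 18.4, 19.7 and 19.4 CPM in Dot1l(fl/fl). Every Dot1l(fl/fl) library lay above every Dot1l(+/+) library for Ramp3, and Dot1l(fl/+) reached below and above both.

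**Figure D1:**
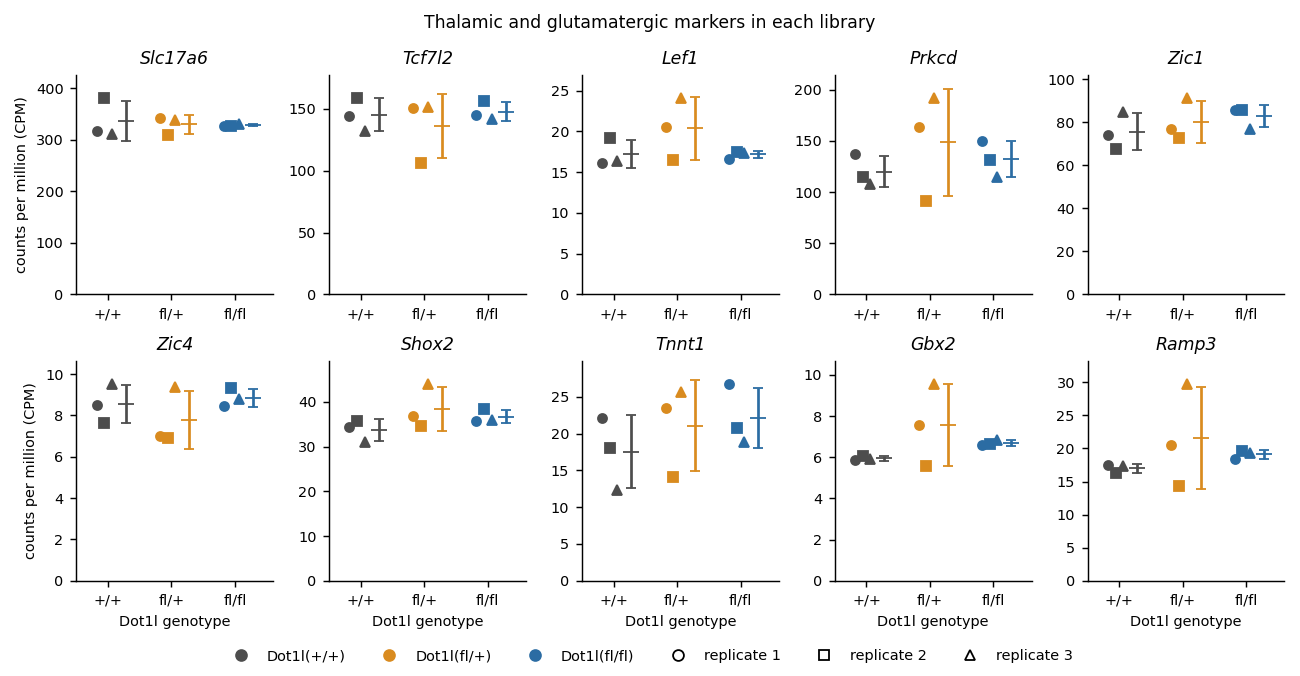
Level of each member in CPM (vertical axes, each starting at 0) by Dot1l genotype. Points are libraries, with the shape giving the replicate number, and the bar beside them is the mean with the SD (n = 3). For Prkcd, Gbx2 and Ramp3 the square and the triangle of Dot1l(fl/+) are the lowest and the highest of the 9 libraries, while the Slc17a6 libraries lie between 309 and 381 CPM.

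No member passed the threshold on the adjusted p-value between genotypes. In Dot1l(fl/+) against Dot1l(+/+), edgeR called 0 of the 10 members at an adjusted p under 0.05, as it did for all 17671 genes tested (0%). DESeq2 on all 9 libraries also called 0 members, and 7 genes in all. At an unadjusted p under 0.05, edgeR called 1 member, Gbx2, with a log2 fold change of 0.35 (SE 0.16, adjusted p = 0.595), against 8.39% of all genes in either direction and 4.3% higher. DESeq2 called 0 members at that level. The share of members was near that of all genes. The libraries of the 2 genotypes overlapped for all 10 members, while they did not for 13.3% of all genes. The fitted log2 fold change was above 0 for 7 of 10 members, with a median of 0.21 against -0.003 over all genes, and the excess lay in Gbx2, Ramp3 (0.34, SE 0.18), Prkcd (0.31, SE 0.20), Tnnt1 (0.27, SE 0.22), Lef1 and Shox2 (0.19, SE 0.09).

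That median rested on single heterozygous libraries. Without Dot1l(fl/+) replicate 3 it was 0.06. The log2 fold changes in that fit were 0.14 for Gbx2, 0.10 for Lef1, 0.10 for Tnnt1, 0.08 for Prkcd, 0.08 for Shox2 and 0.03 for Ramp3. Zic4, at -0.30, was the 1 member with an unadjusted p under 0.05 there, against 5.65% of all genes in either direction. Without Dot1l(fl/+) replicate 2 the median was 0.32. In that fit 6 members had an unadjusted p under 0.05 with log2 fold changes above 0, against 10.2% of all genes in either direction. Among these, Prkcd was at 0.57 (edgeR adjusted p = 0.147), Ramp3 at 0.56 (adjusted p = 0.240) and Gbx2 at 0.53 (adjusted p = 0.247), and the others were Lef1, Tnnt1 and Shox2. In both fits 0 members passed the adjusted threshold. These 2 libraries were singled out as the highest and the lowest for the summed members. Leaving either out therefore moves the members by that choice, and the count of 6 is a description only. The 2 Dot1l(fl/+) libraries that remain in such a fit are assumed to vary like the other genotypes.

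In Dot1l(fl/fl) against Dot1l(+/+), edgeR called 0 of 10 members at an adjusted p under 0.05, against 0% of all genes, and 0 at an unadjusted p under 0.05, against 3.93%. DESeq2 on all 9 libraries called 0 members at either level. The fitted log2 fold change was above 0 for 8 of 10 members, with a median of 0.13 against 0.001 over all genes. The libraries did not overlap for 2 members, Gbx2 (0.17, SE 0.16) and Ramp3 (0.17, SE 0.19), both higher in Dot1l(fl/fl), against 10.3% of all genes in either direction and 5.03% higher. Tnnt1 had the largest fitted value, 0.34 (SE 0.23, edgeR adjusted p = 0.999), with a 95% confidence interval from -0.14 to 0.83. It was 0.14 without Dot1l(+/+) replicate 3 and 0.55 without Dot1l(+/+) replicate 1.

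In Dot1l(fl/fl) against Dot1l(fl/+), edgeR again called 0 of 10 members at an adjusted p under 0.05, against 0% of all genes, and 0 at an unadjusted p under 0.05, against 6.48%, and DESeq2 on all 9 libraries called 0 at either level. The libraries overlapped for all 10 members, while they did not for 11.1% of all genes. The fitted log2 fold change was above 0 for 4 members, and the median was -0.04 against 0.001 over all genes. Lef1 had the largest difference, -0.25 (SE 0.12, adjusted p = 0.778), and Zic4 the largest in the other direction, 0.19 (SE 0.14, adjusted p = 0.823). Lef1 was at -0.11 and Zic4 at 0.35 without Dot1l(fl/+) replicate 3, and Lef1 was at -0.38 and Zic4 at 0.11 without Dot1l(fl/+) replicate 2. Zic4 was at 0.12 without Dot1l(fl/+) replicate 1. Without Dot1l(fl/+) replicate 3 the median was 0.10, and without replicate 2 it was -0.14. In the fit without replicate 2, 4 members, Lef1, Prkcd, Gbx2 and Ramp3, were under an unadjusted p of 0.05, against 9.79% of all genes. Replicate 2 was singled out as the lowest library for the summed members, so these 4 largely follow from that choice. These 3 comparisons share libraries, so their values are not independent of one another.

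**Figure D2:**
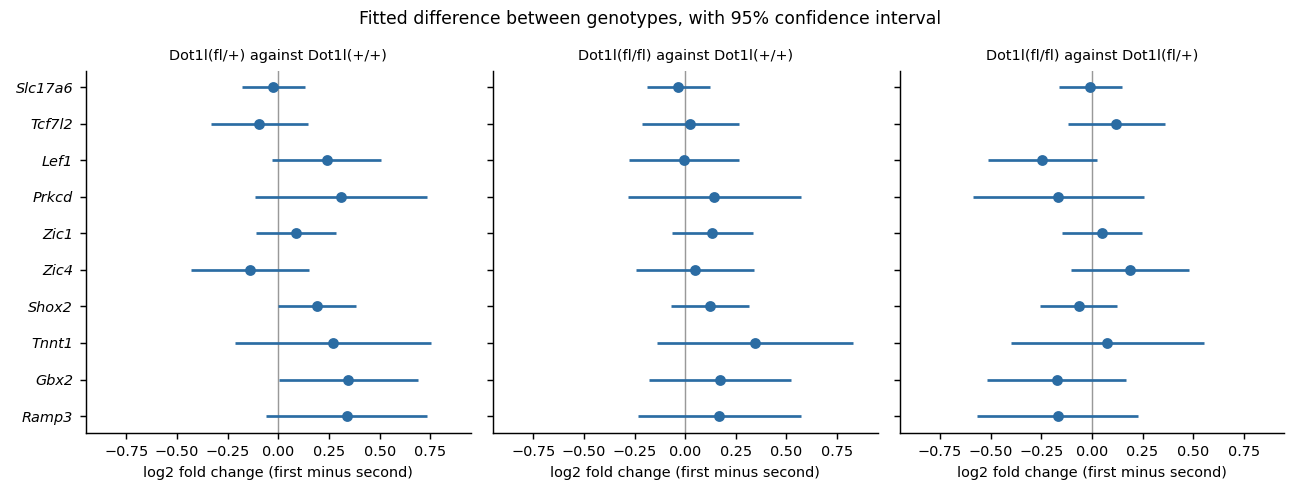
Fitted log2 fold change of each member (points, first genotype minus second) in the 3 comparisons, with the 95% confidence interval of the edgeR fit as a line (n = 3 libraries in each genotype). The intervals include 0 for all members and comparisons but Gbx2 in Dot1l(fl/+) against Dot1l(+/+), whose interval starts just above it, and they are shortest for Slc17a6.

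Several members varied widely between pools of 1 genotype. The SD of log2 CPM within genotype placed Tnnt1 (0.39) at percentile 89.5 of all genes tested, Prkcd (0.36) at 87.3, Ramp3 (0.30) at 82.6 and Gbx2 (0.22) at 73.1. Slc17a6 (0.10) was at percentile 40.1 and Shox2 (0.12) at 49.5, so the relay neuron genes were among the more variable genes and the glutamate transporter was not. The spread was largest in the heterozygotes. The median SD over the 10 members was 0.29 in Dot1l(fl/+), against 0.13 over all genes, 0.15 in Dot1l(+/+) against 0.10, and 0.06 in Dot1l(fl/fl) against 0.10. All 10 members were higher in Dot1l(fl/+) replicate 3 than in Dot1l(fl/+) replicate 2, with a median log2 difference of 0.53, while 8708 of all 17671 genes were higher there, with a median of -0.003. These 2 libraries were singled out as the lowest and the highest for the summed members, so a difference in this direction largely restates that choice. The comparison is a description with no replicate check.

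Over the 9 libraries, with the mean of each genotype removed, 43 of the 45 pairs of members had a Pearson r above 0 on log2 CPM, and the median r was 0.67. Pairs were compared by an exact two-sided permutation test of the libraries within genotypes, which has 216 arrangements and a smallest p of 0.00463. With the Benjamini-Hochberg adjustment over 45 pairs, a pair alone at that p reaches an adjusted p of 0.208, so that 0 pairs past an adjusted 0.05 says little about them. At an unadjusted p under 0.05 there were 5 pairs. Prkcd and Tnnt1 had r = 0.89 (exact permutation p = 0.00463, adjusted p = 0.208), with a Spearman rho of 0.88 (exact permutation p = 0.00463, adjusted p = 0.208). Zic4 and Ramp3 had r = 0.79 (p = 0.00926, exact permutation, adjusted p = 0.208) and rho = 0.92 (p = 0.0139, exact permutation, adjusted p = 0.313). The other 3 were Lef1 with Gbx2 (r = 0.91, rho = 0.82), Zic1 with Zic4 (r = 0.88 and rho = 0.87) and Tcf7l2 with Lef1 (r = 0.88, rho = 0.87), with exact permutation p from 0.0185 to 0.0463 for r and from 0.0231 to 0.0417 for rho, adjusted p for r from 0.278 to 0.365 and for rho from 0.347 to 0.375.

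The joint movement of the whole list rested on the heterozygous pools. Without the 3 Dot1l(fl/+) libraries, 20 of 45 pairs had an r above 0 and the median r was -0.20. Leaving out only Dot1l(fl/+) replicate 2 gave 34 pairs above 0 and a median r of 0.30. Leaving out only Dot1l(fl/+) replicate 3 gave 33 pairs and 0.41. Gbx2 and Ramp3 had the highest r over 9 libraries, 0.98, but a rho of 0.42 (exact permutation p of 0.231 for r and 0.454 for rho, adjusted p = 0.483 and 0.718). Their r fell to -0.25 without Dot1l(fl/+) replicates 2 and 3, the 2 libraries farthest from the median, so the relation rested on those 2 libraries. Prkcd and Tnnt1 were different in this respect, since r was 0.88 without the 2 farthest libraries, the same 2, and 0.89 without the heterozygotes. In Dot1l(+/+) and in Dot1l(fl/fl), replicate 1 was the highest and replicate 3 the lowest for both genes. If the replicate numbers follow matched sets, which was not settled here, these 6 pools are not independent, and the permutation within genotypes does not allow for it. Tcf7l2 with Lef1 kept an r of 0.69, Lef1 with Gbx2 0.69, Zic1 with Zic4 0.67 and Zic4 with Ramp3 0.58 without their 2 farthest libraries.

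In the 6 libraries of Dot1l(+/+) and Dot1l(fl/fl), the members fell into sets with r values of opposite sign. Slc17a6, Tcf7l2, Lef1 and Shox2 had an r between 0.64 and 0.96 with one another, the highest being Tcf7l2 with Shox2 and then Slc17a6 with Lef1 at 0.95. Zic1 and Zic4 had an r of 0.81 with each other and between -0.60 and -0.81 with those 4 genes. In Dot1l(+/+) replicates 2 and 3, Zic4 deviated from its genotype mean by -0.16 and 0.16 in log2 CPM and Tcf7l2 by 0.13 and -0.13. In the 3 Dot1l(fl/fl) libraries the deviations of both were smaller and had the same sign, -0.07, 0.08 and -0.01 for Zic4 and -0.03, 0.08 and -0.06 for Tcf7l2, so for these 2 genes the opposite movement was that of 1 genotype. Prkcd and Tnnt1 formed a further pair. These sets were read from the values after they were seen, rest on 6 libraries, and are a description with no test.

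**Figure D3:**
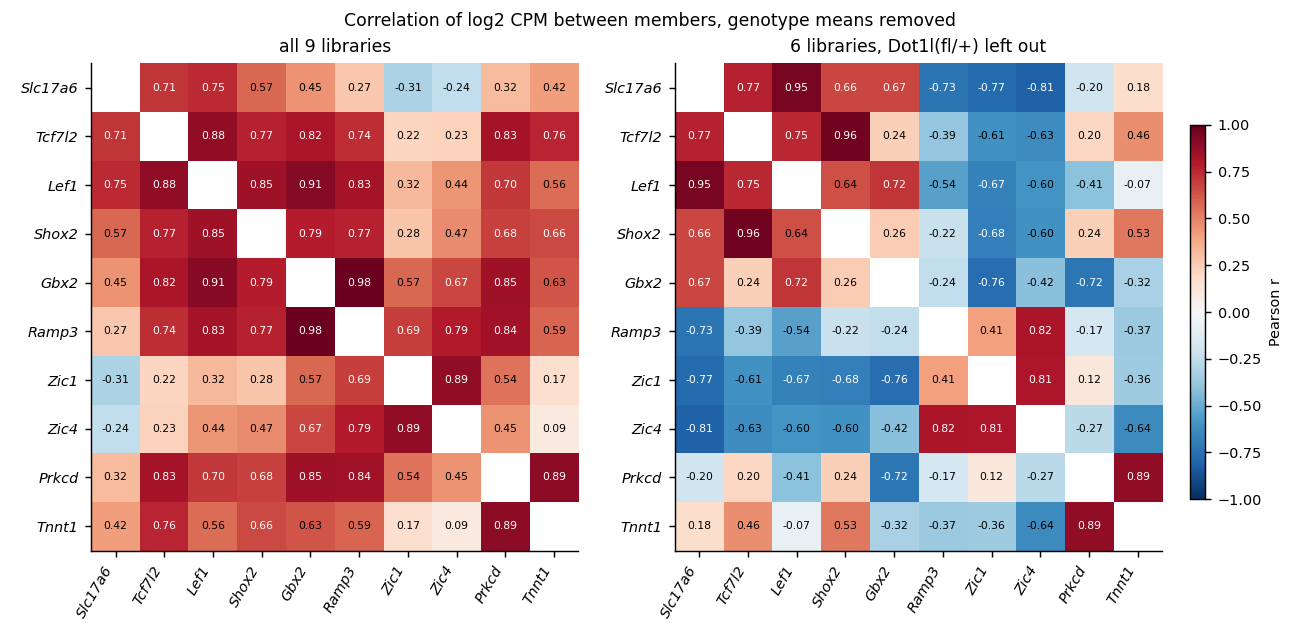
Pearson r of log2 CPM between each pair of members, with genotype means removed, over all 9 libraries (left) and over the 6 libraries of Dot1l(+/+) and Dot1l(fl/fl) (right), on a colour scale from -1 to 1. On the left 43 of 45 pairs are above 0, with the values below 0 in Slc17a6 with Zic1 and with Zic4. On the right 20 of 45 are above 0, and Zic1 and Zic4 are below 0 with Slc17a6, Tcf7l2, Lef1 and Shox2.

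**Figure D4:**
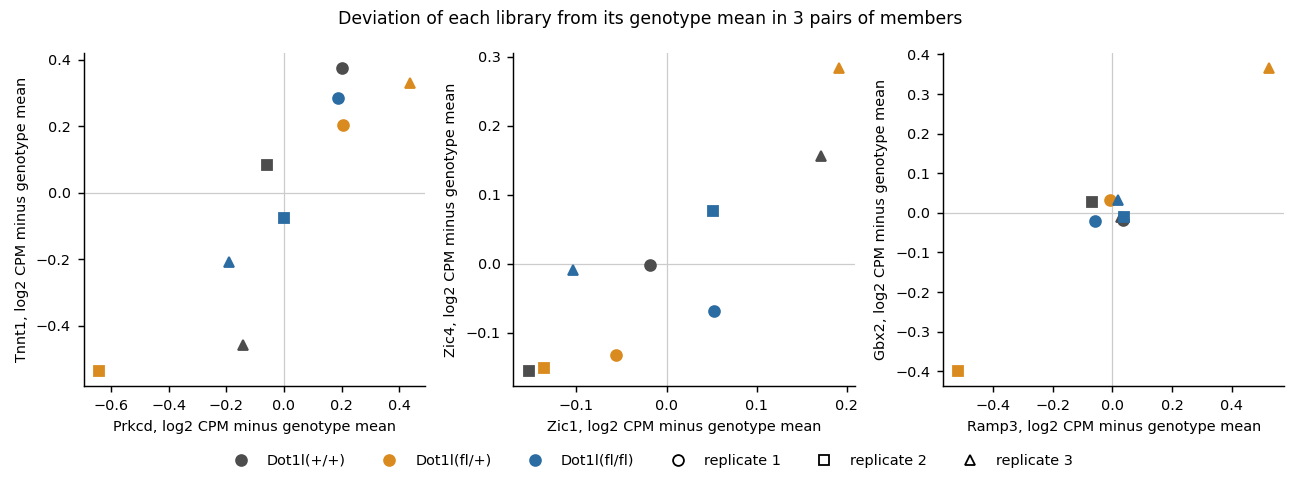
Deviation of each library from the mean of its genotype in log2 CPM, for Prkcd (horizontal) and Tnnt1 (vertical), Zic1 and Zic4, and Ramp3 and Gbx2. Colour gives the genotype and shape the replicate number. The Prkcd and Tnnt1 points of all genotypes lie along a rising line, whereas the Ramp3 and Gbx2 points are gathered near 0 apart from Dot1l(fl/+) replicates 2 and 3.

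Other genes followed the mean of the members over the libraries. With each member scaled to the same SD and averaged, the mean lay at -1.60 in Dot1l(fl/+) replicate 2 and at 1.47 in Dot1l(fl/+) replicate 3, and between -0.28 and 0.24 in the other 7 libraries, as deviations from the genotype mean in SD units. Among all other genes, those with the highest r to this mean over the 9 libraries were Spock2 (0.99), Sin3b (0.98), Gm11772 (0.98), Sh3d19 (0.98), Cfap43, Inpp5b, H2afy2, Fbxw5, Kcna6 and Faim2 (0.97 each). Spock2, which encodes an extracellular proteoglycan of the brain, measured 930 CPM in Dot1l(fl/+) replicate 2, 1155 CPM in Dot1l(fl/+) replicate 3 and 1010 to 1084 CPM elsewhere. Faim2, an inhibitor of Fas-mediated cell death in neurons, had an r of 0.97 also without the heterozygotes. The lowest r belonged to Mzt1 (-0.99), Aldh1a2 (-0.99), Bmi1 (-0.99), Eif1ax (-0.98) and Zbtb6 (-0.98). Aldh1a2, an enzyme that makes retinoic acid, measured 14.6 CPM in Dot1l(fl/+) replicate 2 and 8.24 CPM in replicate 3. As all other tested genes were ranked over 9 points, of which 2 carry most of the spread, these r values describe likeness only.

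Other lists describe neighbouring cell groups. The 12 further genes of thalamic nuclei had r values above 0 with the mean of the members in 12 of 12 cases, with a median of 0.84, from 0.16 for Calb2 to 0.92 for Synpo2. All 12 were higher in Dot1l(fl/+) replicate 3 than in replicate 2, with a median log2 difference of 0.43. Rora, a nuclear receptor of thalamic relay neurons, measured 162 CPM in Dot1l(fl/+) replicate 2 and 183 to 214 CPM in the other 8 libraries. Plekhg1 measured 64.5 CPM there and 90.7 to 122 CPM elsewhere. The genes listed for the habenula, the small nuclear group beside the thalamus, mostly went the other way. In replicate 3, 1 of 10 was higher, Tac2 by 1.16, with a median of -0.51, and 1 of 10 had an r above 0. Nwd2, Lrrc55 and Wif1 differed little, at -0.06, -0.10 and -0.003. Gpr151, Chrnb4, Tac2 and Wif1 were weakly measured, with 108, 190, 366 and 474 counts over the 9 libraries. Dopamine neuron markers were also lower in replicate 3, with 1 of 11 higher and a median of -0.39.

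Glutamate handling genes differed in sign from the members between these 2 libraries. Of 11, which include the cortical transporter Slc17a7, the glial transporters and glutaminase, 0 were higher in Dot1l(fl/+) replicate 3 than in replicate 2, with a median of -0.12. Slc17a7 measured 471 CPM in replicate 2 and 392 CPM in replicate 3. Among genes of the subthalamic, mammillary and midbrain glutamatergic neurons, 8 of 12 were higher in replicate 3 (median 0.43). The counts were 9 of 14 for paralogs of the members (0.09) and 12 of 15 for Wnt and beta-catenin genes (0.14). The lists are not all separate. Cacna1g and Calb2 are in both the Wnt list and the list of other thalamic genes, and both are among the 12 higher. Sim1 is in both the hypothalamic and the subthalamic list, and Slc1a3 in both the glutamate handling and the astrocyte list.

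Markers of other tissue also differed between these 2 libraries. All 5 choroid plexus markers (median 1.31) and all 5 hypothalamic markers tested (0.99) were higher in replicate 3, and 1 of 4 serotonin neuron markers (-1.64). Oligodendrocyte markers were higher for 7 of 8 (0.11) and astrocyte markers for 1 of 7 (-0.15). The counts were 3 of 7 for microglia (-0.16), 3 of 6 for endothelial and mural cells (-0.07), 2 of 10 for cortex and hippocampus (-0.23) and 4 of 10 for GABA neurons (-0.13). In Dot1l(fl/+) against Dot1l(+/+), where the median of the members was 0.21, choroid plexus markers had a median log2 fold change of 0.94, with 4 of 5 higher at an unadjusted p under 0.05, and hypothalamic markers one of 0.62, with 2 of 5 higher, against 4.3% of all genes higher. Oligodendrocyte markers had a median of 0.10, with 3 of 8 higher at that level, from 0.07 with 2 of 8 without Dot1l(+/+) replicate 3 to 0.15 with 4 of 8 without Dot1l(+/+) replicate 1. Without Dot1l(fl/+) replicate 3 the choroid plexus median was 0.31, with 0 of 5 past that level, and it was 0.71 with 0 of 5 without Dot1l(+/+) replicate 2. For the hypothalamic markers, leaving out Dot1l(fl/+) replicate 3 gave a median of 0.51 and leaving out Dot1l(+/+) replicate 3 gave 0.99. The part that tissue content plays in the values of the members was not tested.

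**Figure D5:**
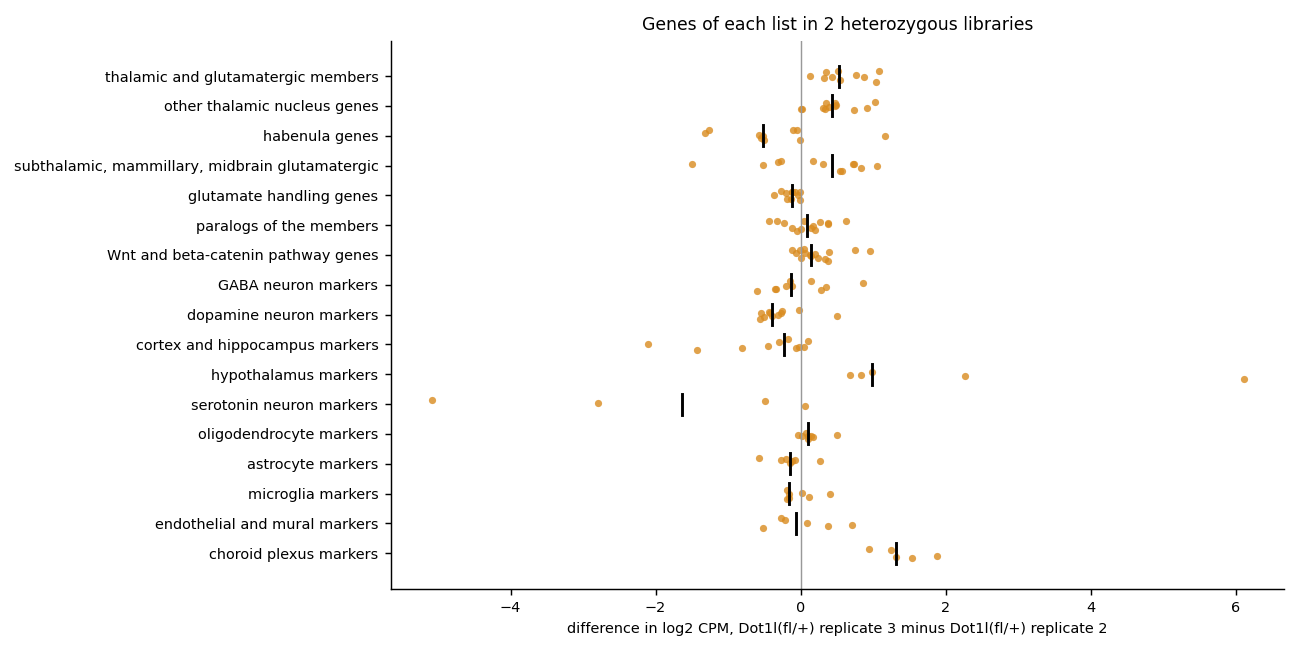
Difference in log2 CPM between Dot1l(fl/+) replicate 3 and Dot1l(fl/+) replicate 2 for each gene of 17 lists (points, with random vertical offsets), with the median of the list as a black line. The 10 members and the 12 other thalamic genes lie above 0 throughout, the glutamate handling genes lie below 0, and choroid plexus and hypothalamic markers lie above 0.

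Between genotypes, edgeR called 0 genes of any list at an adjusted p under 0.05. DESeq2 on all 9 libraries called 0 of them in Dot1l(fl/+) against Dot1l(+/+), 3 in Dot1l(fl/fl) against Dot1l(+/+) and 4 in Dot1l(fl/fl) against Dot1l(fl/+), which were dopamine neuron, choroid plexus and hypothalamic markers. In Dot1l(fl/+) against Dot1l(+/+), 3 of the 12 other thalamic genes had an unadjusted p under 0.05, against 8.39% of all genes, with Rgs16 at a log2 fold change of 0.52 (SE 0.16), Cbln1 at 0.38 (SE 0.11) and Lhx9 at -0.21 (SE 0.06), each with an edgeR adjusted p = 0.541. DESeq2 on the 2 genotypes alone called Rgs16, a regulator of G protein signalling (adjusted p = 0.0390). Rgs16 measured 45.7, 36.9 and 61.7 CPM in Dot1l(fl/+) against 31.7 to 35 CPM in Dot1l(+/+), and without Dot1l(fl/+) replicate 3 its log2 fold change was 0.30 and that of Cbln1 0.27. Without Dot1l(fl/+) replicate 2, 8 of the 12 were higher at an unadjusted p under 0.05 and 1 was lower, against 10.2% of all genes in that fit in either direction. Lhx9 measured 31.2, 28.6 and 29.1 CPM in Dot1l(fl/+) and 33.7 to 34.8 CPM in Dot1l(+/+), so that it was lower in all 3 heterozygous libraries, replicate 3 included. In Dot1l(fl/fl) against Dot1l(+/+), 0 of the 12 were past that level, and the median log2 fold change was 0.02. Lhx9 (0.30, SE 0.06) and Cbln1 (-0.33, SE 0.11) were past it in Dot1l(fl/fl) against Dot1l(fl/+), against 6.48% of all genes, and the median was -0.08. Without Dot1l(fl/+) replicate 2 the median was -0.18, with 8 lower and 1 higher at that level, against 9.79% of all genes. Without Dot1l(fl/+) replicate 3 it was 0.002, with 0 lower and 1 higher, against 4.90% of all genes. Glutamate handling genes gave 1 of 11 in Dot1l(fl/+), Got1 at 0.12 (SE 0.06, adjusted p = 0.595), and 0 in both other comparisons. Znrf3, which removes Wnt receptors from the cell surface, was the 1 of 15 Wnt genes past it in Dot1l(fl/+) against Dot1l(+/+), at -0.19 (SE 0.08, adjusted p = 0.568).

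Markers of dopamine neurons, the cells in which Cre acts, lay below 0 in the same fit. In Dot1l(fl/fl) against Dot1l(+/+), 0 of 11 had a fitted log2 fold change above 0, against 50.4% of all genes, 9 had an unadjusted p under 0.05, against 3.93%, and the median was -0.39. Slc6a3, the dopamine transporter gene, was at -0.68 (SE 0.09, edgeR adjusted p = 0.0906), and DESeq2 on all 9 libraries called it together with Th, which encodes tyrosine hydroxylase, and Slc18a2, the vesicular monoamine transporter. In Dot1l(fl/+) against Dot1l(+/+), 0 of 11 were above 0, 5 had an unadjusted p under 0.05, against 8.39% of all genes, and the median was -0.21. Leaving out Dot1l(fl/+) replicate 3 gave -0.12 and leaving out Dot1l(+/+) replicate 1 gave -0.14, with 2 markers past that level in each. The median of the 10 thalamic and glutamatergic members was 0.13 in Dot1l(fl/fl) against Dot1l(+/+). Habenula genes had a median of -0.15, with 2 of 10 lower at that level, Chrna3 at -0.47 (SE 0.17) and Wif1 at -0.69 (SE 0.27), and 0 of 10 without Dot1l(fl/fl) replicate 1. Subthalamic, mammillary and midbrain glutamatergic genes also had a median of -0.15, with Lmx1b at -0.56 (SE 0.16) and Foxa2 at -0.59 (SE 0.24), both of which dopamine neurons also express, and the median was -0.06 without Dot1l(fl/fl) replicate 2. Cortex and hippocampus markers had a median of 0.14, with 3 of 10 higher at that level, and microglia markers one of 0.15, with 2 of 7 higher. With 1 library left out, these medians ranged from 0.03 (Dot1l(+/+) replicate 1) to 0.29 (Dot1l(+/+) replicate 3) and from 0.07 to 0.23 (the same libraries). The cortex and hippocampus count was 1 of 10 without Dot1l(+/+) replicate 1 and 5 of 10 without Dot1l(+/+) replicate 3. The microglia count was 0 of 7 without Dot1l(fl/fl) replicate 2 and 3 of 7 without Dot1l(+/+) replicate 3. Choroid plexus markers had a median of -1.12, with 3 of 5 lower. With 1 library left out, this median ranged from -0.86 with 1 of 5 lower (Dot1l(+/+) replicate 1) to -1.35 with 4 of 5 lower (Dot1l(+/+) replicate 2). The medians of the 4 serotonin neuron markers, -0.39, and of the 5 hypothalamic markers tested, -0.34, had 0 past that level and were -0.11 and -0.14 without Dot1l(+/+) replicate 3 and -0.60 and -0.59 without Dot1l(+/+) replicate 2. The remaining lists had medians from -0.08 for Wnt and beta-catenin genes to 0.08 for paralogs of the members.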

How the data were processed

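RNA was isolated by the authors from dissected tissue, made into directional libraries and sequenced on an Illumina NextSeq 500. Reads were mapped to GRCm38.p4, and the submitters' processing notes also name bcl2fastq 2.17, Trimmomatic 0.30 and DESeq2 1.10.1. The aligner, the counter and the annotation release are not given in the sources used here. The deposited values are raw counts per Ensembl gene, 1 file per library. The 3 deposited files of the authors' own comparisons hold fold changes and p-values and were not used.

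Counts were joined and annotated with GENCODE M21, which held 47224 of the 47729 identifiers and 99.9% of all counts. All 9 libraries were fitted with edgeR 4.0.16 in R 4.3.3 (filterByExpr, TMM, quasi-likelihood F-test, genotype as the only factor), with Benjamini-Hochberg adjustment over all genes tested. Log2 CPM used a prior count of 2. Alternatives were DESeq2 1.42.0 (all libraries, or the 2 genotypes), its size factors, no filter, 10 counts in every library, the 2 genotypes alone, the replicate number as a block, and each library left out. An offset for exon length, and the lists with each library left out, were added after seeing the data. On simulated counts with 200 changed genes in Dot1l(fl/+) against Dot1l(+/+), the edgeR step recovered 55.0% at a log2 change of 0.5 among 17487 genes and 83.5% at 1 among 17495. It made 7 and 10 false calls. The simulated spread followed the fitted trend over all genes, with no added spread of single genes and no shift shared by genes. Several members varied more than most genes, so these shares do not give the power for the members. The common biological coefficient of variation was 8.81%. Counting error adds to it and weighs most for Gbx2 and Zic4, the members with the fewest counts.

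The members and the gene lists were chosen with earlier results of these data known. Named genes are the 10 members, up to 4 genes per other list and comparison with the lowest unadjusted p under 0.05, Dot1l, Th and Slc6a3 as checks, and the 10 genes most and 5 least like the mean of the members. Single genes of the lists named for their values in the heterozygous libraries or for their r were chosen after their values were seen. Promoter sequences are from RefSeq (GRCm38.p6), which held windows for all 10 members. Some genes of the other lists are not reported here.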

Additional observations from a re-analysis of the deposited data

How the results depend on the processing

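Of 510 log2 fold changes of single members under the alternatives, 509 stayed on the same side of the adjusted threshold. The exception was Prkcd in Dot1l(fl/+) against Dot1l(+/+) with no filter on low counts, at 0.31 (edgeR adjusted p = 0.000267, over a range of adjusted p from there to 0.990 across its alternatives), where 1 member and 251 genes were called. The cause was not tested.

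Counts of members with an unadjusted p under 0.05 moved more. In Dot1l(fl/+) against Dot1l(+/+), where the count was 1, it was 0 with DESeq2 on all 9 libraries, 0 with DESeq2 or edgeR on the 2 genotypes compared, 6 with no filter (7.61% of all genes), 2 with the exon length offset (7.53%), and 0 to 6 with 1 library left out (5.45% to 12.5%), the 6 being without Dot1l(fl/+) replicate 2, with 2 without Dot1l(+/+) replicate 2 and 0 without Dot1l(+/+) replicate 1 or 3 or any 1 Dot1l(fl/fl) library. In Dot1l(fl/fl) against Dot1l(+/+), where it was 0, it was 3 with no filter (4.27% of all genes) and 0 to 1 with 1 library left out (Tnnt1 without Dot1l(+/+) replicate 1, Zic1 without Dot1l(+/+) replicate 3). In Dot1l(fl/fl) against Dot1l(fl/+), where it was 0, it was 2 with no filter (6.34% of all genes), 1 with the exon length offset (6.51%) and 0 to 4 with 1 library left out (4 without Dot1l(fl/+) replicate 2, and Zic4 without Dot1l(fl/+) replicate 3). The cause was not tested. Over all genes, the adjusted calls of 0, 0 and 0 in the 3 comparisons became 251, 118 and 164 with no filter, 7, 3 and 11 with DESeq2 on all 9 libraries, and 45, 8 and 8 with DESeq2 on the 2 genotypes. Pairs of members past an adjusted p of 0.05 numbered 6 instead of 0 when the genotype means were kept and the values permuted 100000 times over all libraries.

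The groups share replicate numbers. The study's methods describe pools built from sets of the 3 genotypes taken from the same nests, but no source used here says that a replicate number marks such a set. Same-numbered libraries had correlations of deviations from 0.022 to 0.317, over 0.1 in 6 of 9 pairs, and 7 of 9 libraries correlated best with their own number, which is a hint from the data that the numbers may follow those sets. With the replicate block, 0 members were called in each comparison, the counts at an unadjusted p were 1, 0 and 0, the calls over all genes were 0, 3 and 3, and 0 pairs of members passed, with 9 at an unadjusted p instead of 5. The adjusted p of a pair has the same lower limit there.

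With 3 pools per genotype, the 95% interval in Dot1l(fl/fl) against Dot1l(+/+) ran from -0.19 to 0.12 for Slc17a6 and from -0.14 to 0.83 for Tnnt1. These intervals are not adjusted for the number of genes.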
